A study of Mus musculus with 12 samples.

Results

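The IL-1 family cytokines and receptors were followed here through 10 genes, namely the agonists Il1a, Il1b, Il18 and Il33, the inhibitors Il1rn and Il18bp, and the receptor chains Il1r1, Il1r2, Il1rap and Il1rl1. The members were the rows of the count table that carried these symbols, 10 of 55335 listed genes, and 0 of the symbols stood on more than 1 row. The study asked how thyroid-stimulating hormone (TSH) acting on macrophages bears on insulin resistance, and it sequenced RNA of bone-marrow-derived macrophages (BMDMs) and of livers from C57BL/6N mice. Each tissue had 3 libraries of Tshr f/f mice, which carry loxP sites in both copies of the TSH receptor gene and served as controls, and 3 libraries of their Tshr MKO littermates, which in addition carry Cre under the Lyz2 promoter, active in myeloid cells.

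All 6 BMDM cultures, from male mice aged 6 weeks, had been differentiated with M-CSF (10 ng/mL) for 7 days and then given TSH (1 ng/mL) for 24 h, so that no library without TSH entered the comparison. The livers came from male mice that were put on a high-fat diet at 6 weeks of age for 9 weeks, fasted for 8 h and given insulin (1.5 U/kg) 5 min before collection. In the liver, Lyz2-driven Cre reaches macrophages and other myeloid cells and leaves most of the tissue, the hepatocytes, with the intact floxed gene. Whether each culture or liver was a separate animal is not stated in the labels. For both tissues the study's methods name male littermates of the 2 genotypes, with n = 3 per group. The p-values measure the spread between these samples.

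IL-1α and IL-1β, the products of Il1a and Il1b, bind the same receptor chain, IL1R1, which recruits the shared accessory chain encoded by Il1rap and signals through MYD88 and the IRAK kinases to NF-κB. The brakes sit at several levels, since Il1rn encodes the receptor antagonist, Il1r2 a decoy receptor that does not signal, and Il18bp a secreted protein that captures IL-18. IL-1β and IL-18 are made as precursors that caspase-1 cleaves in the inflammasome, and IL-33, which binds the Il1rl1 product ST2, is held in the nucleus of stromal and epithelial cells. In macrophages this family is known as an early, strongly inducible arm of the inflammatory response, and in the liver IL-1 drives the acute-phase genes of hepatocytes.

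Of the 10 genes, 3 lie on mouse chromosome 2 and 3 on chromosome 1 (GENCODE M21, GRCm38, the assembly also called mm10). Il1a (ENSMUSG00000027399) spans 129299610 to 129309972 of chromosome 2 on the minus strand, Il1b (ENSMUSG00000027398) 129364570 to 129371139 on the same strand, and Il1rn (ENSMUSG00000026981) 24336853 to 24351494 on the plus strand. Il1r2 (ENSMUSG00000026073), Il1r1 (ENSMUSG00000026072) and Il1rl1 (ENSMUSG00000026069) follow each other on the plus strand of chromosome 1, from 40074079, 40225080 and 40429570 to 40125231, 40317257 and 40465415. The others lie apart, with Il18 (ENSMUSG00000039217) at 50554827 to 50581840 of chromosome 9, Il18bp (ENSMUSG00000070427) at 102014885 to 102018690 of chromosome 7, Il33 (ENSMUSG00000024810) at 29925114 to 29960718 of chromosome 19 and Il1rap (ENSMUSG00000022514) at 26581704 to 26730117 of chromosome 16. The counts were taken over whole genes, so the secreted and intracellular forms of Il1rn, or the soluble and membrane forms of Il1rap and Il1rl1, were not separated.

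The sequences around the starts of the 4 cytokine and antagonist genes with the largest differences between BMDM groups are shown because they are where these genes' transcription begins. They run from 250 bases before to 50 bases after an annotated start (RefSeq, GRCm38.p6), 5′ to 3′ on the gene's strand, with capitals on matches to any of 6 motifs searched on both strands. Il1rn and Il33 have more than 1 annotated start, of which the first of 3 and the second of 2 are given. The windows are chr2:129309923-129310222 (Il1a, minus strand), chr2:129371090-129371389 (Il1b, minus strand), chr2:24336610-24336909 (Il1rn, plus strand) and chr19:29945540-29945839 (Il33, plus strand).
Il1a: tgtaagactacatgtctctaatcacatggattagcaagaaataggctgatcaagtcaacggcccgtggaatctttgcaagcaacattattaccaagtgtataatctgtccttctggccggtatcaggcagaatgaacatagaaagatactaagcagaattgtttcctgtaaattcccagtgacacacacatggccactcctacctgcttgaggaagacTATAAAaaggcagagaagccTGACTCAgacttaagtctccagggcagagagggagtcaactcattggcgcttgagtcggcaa
Il1b: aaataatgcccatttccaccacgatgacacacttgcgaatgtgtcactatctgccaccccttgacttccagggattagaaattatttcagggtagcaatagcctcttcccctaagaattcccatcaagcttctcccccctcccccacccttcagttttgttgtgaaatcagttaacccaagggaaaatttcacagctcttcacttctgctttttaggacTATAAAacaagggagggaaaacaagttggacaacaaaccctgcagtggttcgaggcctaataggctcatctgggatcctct
Il1rn: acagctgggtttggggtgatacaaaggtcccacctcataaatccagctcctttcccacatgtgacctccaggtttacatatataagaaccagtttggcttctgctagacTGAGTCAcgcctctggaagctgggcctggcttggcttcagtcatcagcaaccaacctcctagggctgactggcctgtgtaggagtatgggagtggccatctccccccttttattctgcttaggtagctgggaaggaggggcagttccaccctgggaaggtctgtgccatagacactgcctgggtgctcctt
Il33: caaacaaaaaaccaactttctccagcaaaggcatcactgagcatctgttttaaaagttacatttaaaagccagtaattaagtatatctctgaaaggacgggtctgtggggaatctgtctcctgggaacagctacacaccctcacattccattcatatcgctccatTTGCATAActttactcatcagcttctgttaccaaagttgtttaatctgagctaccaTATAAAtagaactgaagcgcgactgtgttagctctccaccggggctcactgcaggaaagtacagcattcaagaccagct

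The capitals in Il1a mark TATAAA, which starts at -32 relative to the annotated start, and the AP-1 motif TGANTCA, which starts at -12. In Il1b the TATAAA starts at -31, and in the second Il33 window at -29, where a C/EBP match (TTNNGCAA on the other strand) also starts at -85. The Il1rn window holds only the AP-1 motif, at -141. All 10 genes matched the promoter table, with 15 windows, and TATAAA was found in 6 of the 15 against 13.6% of the 32851 windows in the table, C/EBP in 4 against 10.8% and AP-1 in 2 against 7.81%. The κB motif GGGANNTTC (3.94% of all windows), the PU.1 motif GAGGAAGT (3.20%) and the cAMP-response motif TGACGTCA (1.79%) had no match in the member windows, which says only that these letters are not in these windows. No 2 matches overlapped in the windows printed.

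The libraries held 33683981 to 40954211 counts in BMDMs and 28962878 to 40420513 in livers. Macrophage markers summed to 15164–17914 CPM (counts relative to the library size, scaled by TMM factors) in Tshr f/f BMDMs and 20167–29712 in Tshr MKO BMDMs, with all 8 detected, and the 6 hepatocyte markers were at 0 in Tshr f/f BMDMs but summed to 75778–101444 CPM in livers. Tshr f/f BMDM replicate 3 stood apart, with a TMM factor of 0.738 against 0.993–1.11 for the other 5, and Il1a, Il1b and Il1rn together took 1.15% of its counts, against 0.0718% and 0.0894% in the other Tshr f/f BMDMs. The counts of Tshr itself were 0, 0 and 2 (Tshr f/f BMDMs), 0, 0 and 5 (Tshr MKO BMDMs) and 0 in all livers, so the knockout could not be checked in these data. For the livers, a supplementary table of the study lists receptor counts of these same libraries under the opposite group headings. The groups of the livers follow the sample labels here and are called by those labels, and under the opposite headings each liver direction would turn. The study's own analysis of the liver sequencing took Lcn2 and Socs3 from genes lower in Tshr MKO livers, their direction under the sample labels. Separate liver assays of the study bear on this and were not used here. Among the genes they reported lower in Tshr MKO livers were Lcn2, Socs3, Il1b, Itgam, Adgre1, Il1a, Il6, Itgax and Egr1. Under the sample labels the log2 fold changes were negative for Lcn2 (-2.94), Socs3 (-1.40), Itgam (-1.06), Il1b (-0.46) and Adgre1 (-0.25), with overlapping groups. That of Il1a was positive (1.08).

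In BMDMs given TSH, the genes of the agonists IL-1α, IL-1β and IL-33 and of the inhibitors had lower levels in the Tshr MKO cultures by the call rule, and none of the 4 receptor chains passed it. The limits of the rule, an unadjusted p under 0.05 and a 2-fold difference, are those of the study, which took its p from DEGseq, whereas here p came from edgeR's quasi-likelihood test. Of the 10 members, 5 passed the rule, all lower in Tshr MKO BMDMs, where 5.52% of the 15372 genes tested were called lower and 3.3% higher. They were Il1a, Il1b, Il1rn, Il33 and Il18bp, and these 5 were also the members with an unadjusted p under 0.05, a limit that 17.9% of all genes passed. The median log2 fold change of the 10 was -1.52, against 0.01 for all genes tested. After Benjamini-Hochberg adjustment over all genes, edgeR's quasi-likelihood test called 0 members and 0% of genes in BMDMs. DESeq2 called 3 members lower at an adjusted p under 0.05, namely Il33, Il1b and Il18bp, and gave no p for Il1a and Il1rn.

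**Figure D1:**
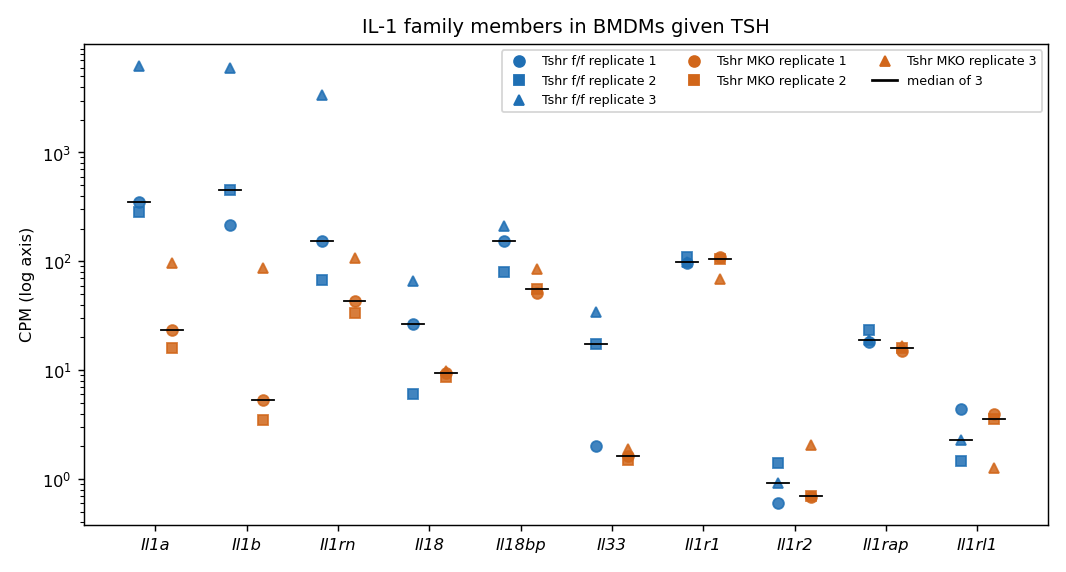
CPM of each member in the 6 BMDM libraries on a log axis, with Tshr f/f in blue, Tshr MKO in orange, a marker shape for each replicate number (which is not taken to pair the libraries) and a black bar at the median of 3. Tshr f/f replicate 3 lies highest for Il1a, Il1b and Il1rn, at 6249.6, 5941 and 3404 CPM, while the 6 values of Il1r1 lie between 69.3 and 110.1 CPM.

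The 3 Tshr f/f cultures held 353.5, 283.0 and 6249.6 CPM of Il1a, and the 3 Tshr MKO cultures 23.5, 16.1 and 96.0 CPM. The groups did not overlap, and the highest Tshr MKO value lay below the lowest Tshr f/f value. The log2 fold change was -5.67 ± 1.60 (SE, n = 3 per group; unadjusted p = 0.0112, edgeR adjusted p = 0.222). Il1a encodes IL-1α, which is active without cleavage and acts as an alarm signal when cells are damaged. Without Tshr f/f replicate 3 the difference was -2.83 on the log2 scale, and Il1a passed the call rule in each of the 6 fits that left 1 library out.

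Il1b, the inducible agonist of macrophages, measured 216.4, 452.7 and 5941 CPM with the receptor gene intact (Tshr f/f) and 5.33, 3.49 and 86.6 CPM in the Tshr MKO cultures. Here too the groups did not overlap, and in each group replicate 3 was more than 10-fold above the lowest library. The log2 fold change was -6.11 ± 2.01 (edgeR adjusted p = 0.236; DESeq2 adjusted p = 0.0125). It was -3.41 when Tshr f/f replicate 3 was left out and -8.96 when Tshr MKO replicate 3 was left out, and it passed the call rule in 3 of the 6 leave-one-out fits, with p just above the limit in the fits without Tshr f/f replicate 3, Tshr MKO replicate 1 or Tshr MKO replicate 2.

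For Il1rn, the receptor antagonist gene, the Tshr f/f values were 154.0, 67.0 and 3404 CPM and the Tshr MKO values 43.3, 33.8 and 106.3 CPM. Tshr MKO replicate 3 lay above Tshr f/f replicate 2, so the groups overlapped. The log2 fold change was -4.31 ± 1.58 (edgeR adjusted p = 0.257), of which -0.87 was left without Tshr f/f replicate 3, where the unadjusted p was 0.198. The antagonist passed the call rule in 2 of the 6 leave-one-out fits.

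The alarmin gene Il33 was found at 2.01, 17.3 and 34.45 CPM in the Tshr f/f cultures, against 1.645, 1.49 and 1.90 CPM in the Tshr MKO cultures. The lowest Tshr f/f value lay next to the highest Tshr MKO value, and the other 2 Tshr f/f cultures were well above it. The log2 fold change was -3.41 ± 0.93 (edgeR adjusted p = 0.218; DESeq2 adjusted p = 7.8e-04), and it passed the call rule in 6 of 6 leave-one-out fits, with -2.51 on the log2 scale without Tshr f/f replicate 3. The 7 fibroblast and stellate cell markers, such as the collagen genes, summed to 1107, 2661 and 1057 CPM in the Tshr f/f cultures and to 1091, 1356 and 676 CPM in the Tshr MKO cultures, with Lrat at 0 in both groups and Reln at 0 in Tshr f/f BMDMs. The culture with the most Il33 was not the culture with the most of these markers, and their part in the Il33 difference was not tested.

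The IL-18 pair moved less. Il18bp, the decoy for IL-18, gave 155.3, 79.1 and 213.4 CPM in the Tshr f/f and 51.5, 55.3 and 84.95 CPM in the Tshr MKO cultures. Its log2 fold change was -1.22 ± 0.39 (edgeR adjusted p = 0.232). Tshr MKO replicate 3 reached above Tshr f/f replicate 2. Il18 itself was at 26.3, 6.00 and 66.2 CPM against 9.505, 8.75 and 9.76 CPM, so that Tshr f/f replicate 2 lay below all Tshr MKO cultures, and its log2 fold change of -1.81 ± 0.76 did not pass the rule (unadjusted p = 0.0525). Il18bp passed in 3 of the 6 leave-one-out fits and lost its call when Tshr f/f replicate 3 (-0.88), Tshr MKO replicate 1 or Tshr MKO replicate 2 was left out. Leaving out Tshr f/f replicate 3 brought Il18 to -0.80. In Tshr MKO cultures the 3 Il18 values were within 8.75–9.76 CPM of each other, whereas the Tshr f/f values ranged over 6.00–66.2 CPM.

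Among the receptor chains, none passed the rule in BMDMs. Il1r1, the signalling receptor for IL-1, stood at 96.4, 109.7 and 98.8 CPM in the Tshr f/f and 110.1, 105.2 and 69.3 CPM in the Tshr MKO cultures. Its log2 fold change of -0.10 ± 0.20 changed sign with the scaling (0.076 with library size only). Il1rap, the accessory chain, was at 18.2, 23.4 and 19.1 CPM against 15.1, 16.2 and 16.8 CPM, and its groups did not overlap although the log2 fold change was only -0.34 ± 0.15 (unadjusted p = 0.0590). Il1r2, the decoy, lay at 0.603–1.40 CPM against 0.679–2.05 CPM (log2 fold change 0.23 ± 0.58), and Il1rl1, the IL-33 receptor also found on mast cells, at 1.47–4.37 against 1.25–3.97 CPM (0.11 ± 0.57). The sign of the Il1r2 and Il1rl1 differences changed when single libraries were left out. The 5 mast cell markers, all detected, summed to 14.8, 4.88 and 9.33 CPM in the Tshr f/f and 20.8, 16.6 and 6.43 CPM in the Tshr MKO cultures, the same order as Il1rl1 within each group, and their part was not tested.

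Groups that did not overlap were counted over the members as well. Of the 10 members, 4 had all Tshr MKO values below all Tshr f/f values (Il1a, Il1b, Il33 and Il1rap), where 14% of all genes tested did so, and 0 had them above, where 14.8% did. Marker lists of other cells did not move one way. The dendritic cell markers (all 6 detected) summed to 11.3–17.6 CPM in Tshr f/f and 8.75–9.25 CPM in Tshr MKO BMDMs, but 2 of the 4 tested were lower and 2 higher, and the one past the rule was Ccr7 (log2 fold change -1.74). The neutrophil markers (all 8 detected) summed to 7.61–49.2 and 5.28–12.3 CPM, and of the 5 tested, S100a8 (-2.37) and Camp (-3.23) passed the rule as lower and Retnlg (3.8) and Mpo (2.01) as higher. Of the 8 macrophage markers, 4 were lower and 4 higher, with a median of -0.11. The higher macrophage sum in Tshr MKO BMDMs went with Lyz2 (0.95), and the one marker past the rule, Cd14, was lower (-2.46). The part of these markers in the member differences was not tested.

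**Figure D2:**
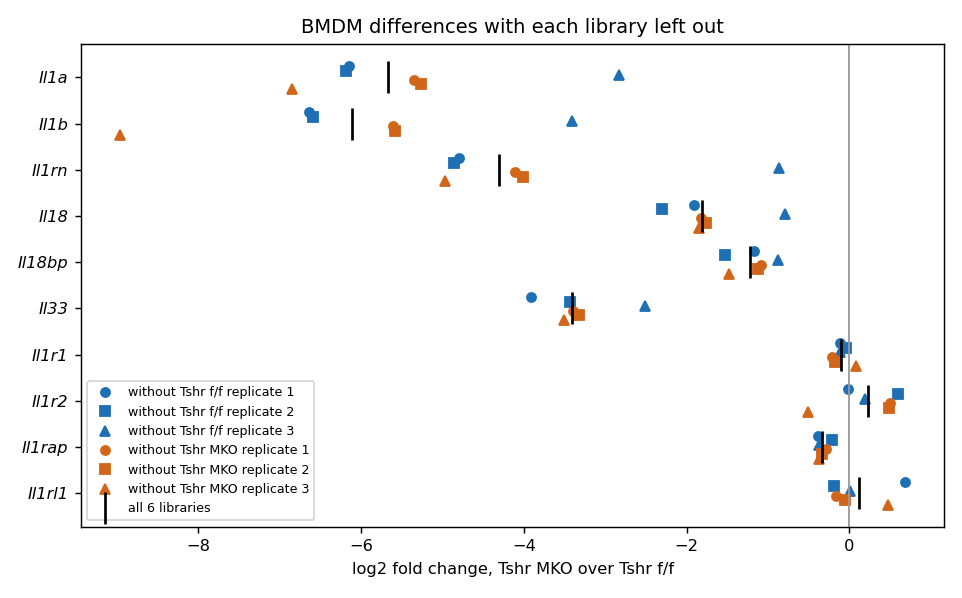
Log2 fold change (Tshr MKO over Tshr f/f BMDMs) of each member with 1 library left out, the colour giving the group and the shape the replicate left out, and a black line for all 6 libraries. Leaving out Tshr f/f replicate 3 brings Il1rn from -4.31 to -0.87 and Il1a from -5.67 to -2.83, and the receptor chains stay between -0.51 and 0.68 in these fits.

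Ratios between members were compared within each library. The ratio of Il1rn to the sum of Il1a and Il1b, each as counts per kilobase of exon within a library, was 0.0951, 0.0318 and 0.0979 in the Tshr f/f and 0.532, 0.609 and 0.204 in the Tshr MKO cultures. All 3 Tshr MKO cultures thus held more antagonist message per agonist message than any Tshr f/f culture, including the library that stood apart. The mean log2 ratio was -3.91 ± 0.92 (SD, n = 3) against -1.31 ± 0.86, a 6.07-fold difference (exact two-sided permutation p = 0.10, the smallest that 3 against 3 allows; adjusted p = 0.267 over 8 ratio comparisons). It lay between 2.07 and 3.09 on the log2 scale when single libraries were left out. In the livers the same ratio was 0.512, 0.169 and 0.244 in the group labelled Tshr f/f and 0.203, 0.0991 and 0.274 in that labelled Tshr MKO, which overlapped (exact p = 0.50).

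For the other pairs, the ratio of Il18bp to Il18 was 1.098–4.48 in Tshr f/f and 1.85–2.96 in Tshr MKO BMDMs, with a log2 difference of 0.08 (exact p = 0.90), and 0.708–1.36 against 0.603–0.943 in livers (-0.37, exact p = 0.40). The decoy Il1r2 was far below Il1r1 in all libraries, at 0.0210–0.0992 of its level per kilobase in BMDMs and 0.00262–0.0119 in livers. In livers labelled Tshr MKO the Il1r2 to Il1r1 ratio was below that of all livers labelled Tshr f/f (2.15-fold, exact permutation p = 0.10, adjusted p = 0.267), but it rests on 2 to 20 counts of Il1r2 per liver. The BMDM groups overlapped in this ratio (exact p = 0.90).

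**Figure D3:**
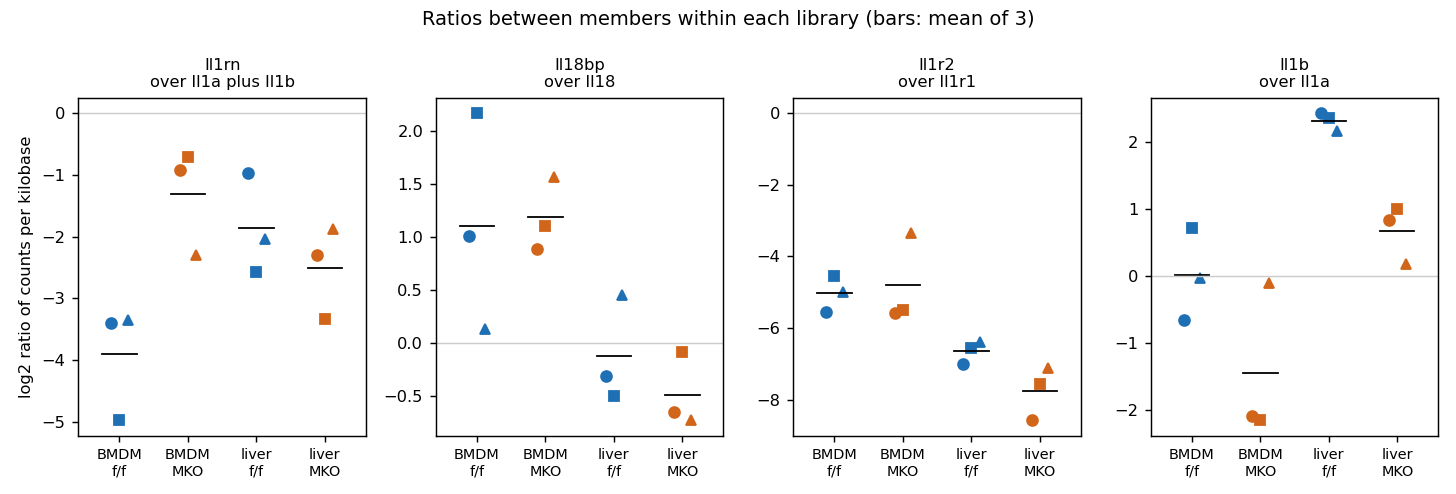
Log2 ratio between members within each library, from counts per kilobase of exon plus a pseudocount of 0.5 counts, for Tshr f/f (blue) and Tshr MKO (orange) as labelled, with a marker shape for each replicate number and a bar at the mean of 3. The groups are apart for Il1rn over Il1a plus Il1b in BMDMs (means -3.91 and -1.31), for Il1b over Il1a in livers (means 2.32 and 0.68) and for Il1r2 over Il1r1 in livers (means -6.65 and -7.75).

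In livers most of the family was at a low level and differed little between the labelled groups. In bulk samples such as these, fewer cells of a type and less RNA per cell cannot be told apart. Of the 10 members, 9 passed the filter on low counts and 1 passed the call rule, Il1a, which was higher in the livers labelled Tshr MKO, where 0.69% of the 15062 genes tested were called higher and 0.856% lower. Il1a and Il1rn had an unadjusted p under 0.05, as did 10.5% of all genes. With edgeR's quasi-likelihood test 0 members and 0% of genes had an adjusted p under 0.05, and DESeq2 likewise called 0 members. The median log2 fold change of the 9 members was -0.11, against -0.01 over all genes tested.

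**Figure D4:**
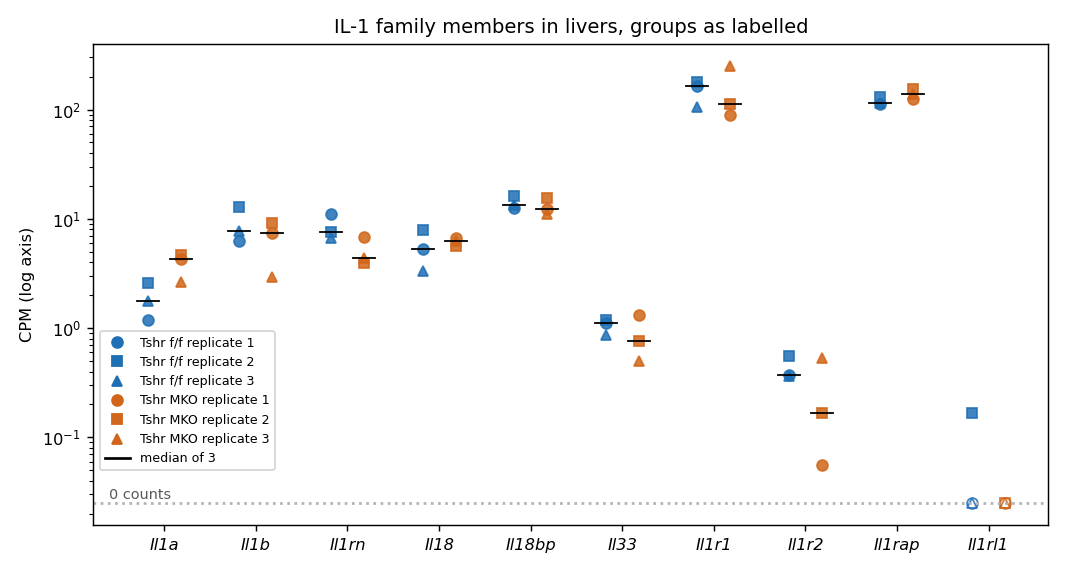
CPM of each member in the 6 livers on a log axis, coloured by the labelled group, with a marker shape for each replicate number, a black bar at the median of 3 and open markers on the dotted line for 0 counts. The 3 Il1a values labelled Tshr MKO (2.655–4.69 CPM) lie above the 3 labelled Tshr f/f (1.18–2.56 CPM), while the other members overlap between groups.

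The livers labelled Tshr f/f held 1.18, 2.56 and 1.76 CPM of Il1a and those labelled Tshr MKO 4.30, 4.69 and 2.655 CPM, from 35 to 197 counts per library. The groups did not overlap, with a narrow gap between Tshr f/f replicate 2 and Tshr MKO replicate 3. The log2 fold change was 1.08 ± 0.36 (unadjusted p = 0.0210, edgeR adjusted p = 0.403), the sign opposite to that in BMDMs under the sample labels and the same under the exchanged headings (-1.08). It passed the call rule in 2 of 6 leave-one-out fits, with 0.84 to 1.40 on the log2 scale over them, and it was 0.92 (unadjusted p = 0.0722) with the first letter of the sample code as a covariate. Of the 9 members tested, 1 had groups apart upward, where 9.6% of all genes did, and 0 downward, where 7.74% did.

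For Il1b the values labelled Tshr f/f were 6.26, 12.8 and 7.70 CPM and those labelled Tshr MKO 7.43, 9.14 and 2.90 CPM, which overlapped (log2 fold change -0.46 ± 0.45, unadjusted p = 0.349). Set against Il1a, however, the values separated. The Il1b to Il1a ratio per kilobase was 5.41, 5.15 and 4.50 in livers labelled Tshr f/f and 1.79, 2.02 and 1.13 in livers labelled Tshr MKO, a comparison chosen after both genes' values had been seen. The log2 difference was -1.65, with SDs of 0.14 and 0.44 (exact permutation p = 0.10, the smallest possible; adjusted p = 0.267), and -1.82 to -1.40 with single livers left out. In BMDMs the ratio was 0.634, 1.66 and 0.984 against 0.235, 0.225 and 0.933, which overlapped (exact p = 0.20).

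Il1rn measured 11.03, 7.50 and 6.67 CPM under the label Tshr f/f and 6.845, 3.93 and 4.35 CPM under the label Tshr MKO, with a slight overlap. The log2 fold change of -0.74 ± 0.29 had an unadjusted p of 0.0379 and stayed under 2-fold. The highest value was that of Tshr f/f replicate 1, the liver that also had by far the highest Saa1 and Saa2, described below. The IL-18 pair did not pass in either direction, with Il18 at 3.32–7.83 against 5.62–6.62 CPM (log2 fold change 0.16 ± 0.31) and Il18bp at 12.6–16.3 against 11.04–15.6 CPM (-0.11 ± 0.17). Il33 was at 0.863–1.185 against 0.4955–1.31 CPM (-0.29 ± 0.44).

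The receptor chains Il1r1 and Il1rap were the most abundant members in liver and did not pass the test between labelled groups. Il1r1 gave 165.4, 178.0 and 106.6 CPM under the label Tshr f/f and 88.96, 113.4 and 251.2 CPM under the label Tshr MKO, so its range within a group was wider than the difference between them (log2 fold change 0.01 ± 0.41). The 3 higher livers were the 3 whose sample codes begin with the letter A, and the labels do not say what the letter stands for. Il1rap was at 113.6, 131.6 and 115.4 CPM against 124.2, 155.5 and 137.9 CPM (0.21 ± 0.12, unadjusted p = 0.112). An antisense gene on the other strand, Gm20319, shares 552 exon bases with Il1rap and had 929–1522 and 1599–2541 counts in the labelled groups, and the strand setting of the counting is not given in the sources used here. Il1r2 was at 0.365–0.551 against 0.0559–0.531 CPM (-0.82 ± 0.76), and 3 counts correspond to 0.0714–0.106 CPM in these livers, a limit of counting only. Il1rl1 had 6 counts in 1 liver and 0 in the other 5, too few to be tested.

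A test of the difference between the BMDM and liver genotype effects was fitted over all 12 libraries, with the livers as labelled. The BMDM effect minus the liver effect was -6.74 ± 1.66 for Il1a on the log2 scale (unadjusted p = 0.0021, edgeR adjusted p = 0.160), -5.66 ± 1.99 for Il1b (adjusted p = 0.252) and -3.58 ± 1.61 for Il1rn (adjusted p = 0.343). Il33 (-3.12 ± 1.07), Il18bp (-1.12 ± 0.47) and Il1rap (-0.55 ± 0.19) also had an unadjusted p under 0.05, which makes 6 of 10 members, against 14.5% of all genes. Over the leave-one-out fits this count was 3 to 7, with 3 when Tshr f/f BMDM replicate 3 was left out, where Il1a was at -3.89, Il1b at -2.94, Il33 at -2.22 and Il1rn at -0.12. At an adjusted p under 0.05 edgeR called 0 members, 0.0058% of all genes, and DESeq2 called 1, Il1b (adjusted p = 0.0490). Il1a was called without Tshr f/f BMDM replicate 2 (adjusted p = 0.0432), as was Il18 (0.0492), and Il33 was called without Tshr f/f BMDM replicate 1 (0.0398). With the liver headings exchanged, a setting added after the data had been seen, the Il1a difference was -4.56 (edgeR adjusted p = 0.279), with Il1a lower in both tissues. The same exchange would make Lcn2 and Socs3 higher in Tshr MKO livers, where separate assays of the study reported both lower. Separate assays also reported Il1a lower there, which is its direction under the exchanged headings but not under the sample labels.

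**Figure D5:**
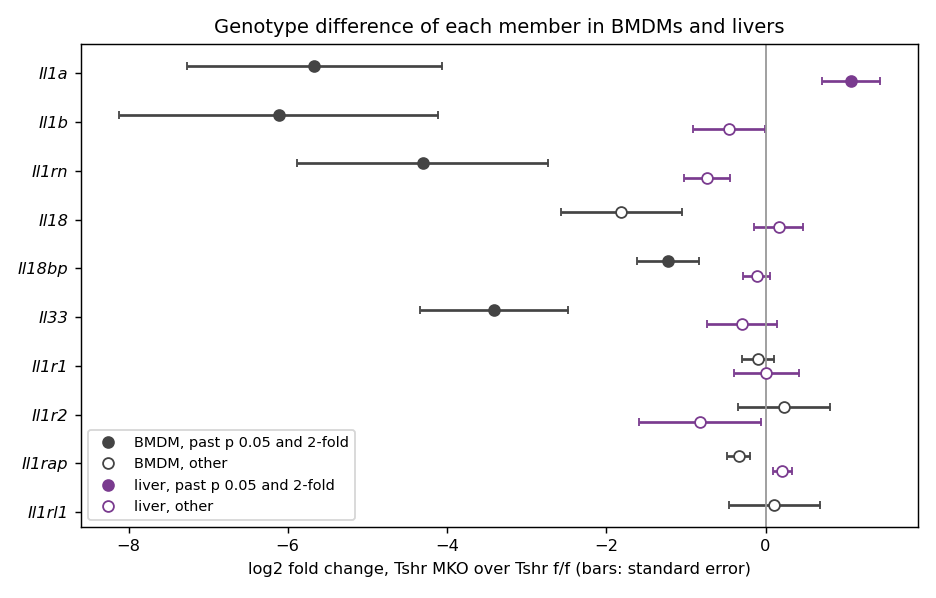
Log2 fold change of Tshr MKO over Tshr f/f with its standard error for each member, in BMDMs (grey) and in livers as labelled (purple), with filled symbols for members past an unadjusted p of 0.05 and 2-fold. Il1a lies at -5.67 in BMDMs and at 1.08 in livers, and Il1rl1 in livers was too low to be tested.

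The 2 control groups also show how the family is divided between macrophages and liver. Between Tshr f/f BMDMs and livers labelled Tshr f/f, which differ in cell type, culture, diet and TSH at once, 7 members were higher in BMDMs and 2 in livers at an adjusted p under 0.05 and 2-fold, where 24.7% and 29.2% of 17246 genes were. The agonist and antagonist genes were on the BMDM side, with log2 differences of 9.40 ± 1.52 for Il1a, 7.06 ± 1.70 for Il1b, 6.29 ± 1.38 for Il1rn, 3.20 ± 0.79 for Il33, 2.52 ± 0.35 for Il18bp and 1.70 ± 0.64 for Il18. Il1rl1 was higher in BMDMs by 4.55, from a liver group with 6 counts in all. The accessory chain Il1rap (-3.46 ± 0.15) and the receptor Il1r1 (-1.44 ± 0.35) were higher in livers, and Il1r2 was not called (0.29 ± 0.70). Leaving out Tshr f/f BMDM replicate 3 brought Il1a to 6.56, Il1b to 4.36, Il1rn to 2.86 and Il33 to 2.33, all still called. The Il18 call was lost in that fit (0.70) and when replicate 1 (1.67) or replicate 3 (1.44) of the livers labelled Tshr f/f was left out, and that of Il1r1 with library size only (-0.61).

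Per kilobase of exon, the order of the levels differed accordingly. In Tshr f/f BMDMs Il1a (1163 ± 1735 CPM per kilobase, mean ± SD) and Il1b (1155 ± 1698) led, followed by Il1rn (218 ± 344), Il18bp (49.3 ± 22.3), Il18 (31.9 ± 29.7) and Il1r1 (15.97 ± 1.1), neighbours whose ranges all overlapped. Below them came Il33, Il1rap, Il1r2 and Il1rl1 at 6.21, 1.78, 0.510 and 0.392. In Tshr MKO BMDMs the top 6 lay closer together, from Il1a (22.9 ± 22.4) through Il18bp (21.1 ± 6.0), Il1b (16.7 ± 24.9), Il1r1 (14.9 ± 3.5) and Il1rn (11.04 ± 7.1) to Il18 (9.06 ± 0.51), again with overlapping neighbours. Il33 had moved from the seventh to the ninth place.

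In livers Il1r1 (23.6 ± 6.0 CPM per kilobase in the group labelled Tshr f/f, 23.8 ± 13.7 in that labelled Tshr MKO) and Il1rap (10.6 ± 0.9 and 12.3 ± 1.4) headed both groups and did not overlap with their neighbours. Il18, Il1b and Il18bp came next at 5.32, 4.68 and 4.65 in livers labelled Tshr f/f, and these ranges overlapped. Il1rn (1.52) stood above Il1a (0.930) with overlapping ranges in livers labelled Tshr f/f, and below it (0.911 against 1.97), with ranges apart, in livers labelled Tshr MKO. Il33, Il1r2 and Il1rl1 closed the order in both.

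The other genes of the family and pathway were taken from 4 lists. Of 11 further family genes, 5 could be tested in BMDMs and 2 passed the rule, both lower in Tshr MKO. Il36g, listed as Il1f9, encodes an IL-36 agonist and was at 2.64, 5.61 and 85.6 CPM against 0.418, 0.320 and 1.16 CPM (log2 fold change -5.61 ± 1.56). Il18rap, the accessory chain of the IL-18 receptor, was at 7.08–10.6 against 2.48–5.62 CPM (-1.24 ± 0.37). In livers 3 of the 11 were tested and 0 passed, with 0 at an unadjusted p under 0.05 and 0 past the rule by DESeq2, and the largest difference was that of Il36g (-0.52 ± 0.75).

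The 14 relay genes, from the adaptor Myd88 and the IRAK kinases to the IκB kinases, were all tested in both tissues. In BMDMs 2 passed the rule, both lower. Irak3, an inhibitory member of the IRAK family, was at 135.5, 199.7 and 402.2 CPM against 52.7, 51.0 and 80.0 CPM (-2.01 ± 0.44), and Irak2 at 184.5, 92.7 and 375.2 CPM against 80.0, 81.1 and 81.1 CPM (-1.43 ± 0.48). The groups were apart for both. With Tshr f/f replicate 3 or any 1 of the Tshr MKO replicates left out, 1 relay gene passed. The list's median was -0.24. In livers 0 of 14 passed the rule by edgeR or DESeq2, 3 were lower at an unadjusted p under 0.05, and the largest difference was that of Irak3 (-0.73 ± 0.47).

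Of 14 processing genes, which encode inflammasome sensors, caspases, gasdermins and the proteases that cut these cytokines, 12 were tested in BMDMs and 3 passed, all lower. The sensor gene Nlrp3 was at 451.6, 188.3 and 1439.9 CPM against 104.8, 90.4 and 214.1 CPM (-2.34 ± 0.78), with Tshr MKO replicate 3 above Tshr f/f replicate 2. Casp4, the sensor of cytosolic lipopolysaccharide (-1.99 ± 0.58), and Nlrc4 (-1.12 ± 0.34) had groups apart, and the list's median was -0.27. With Tshr f/f replicate 3 left out, 1 gene of the list passed, and with replicate 2 left out, 5 did. In livers 0 of 13 passed by edgeR, 0 had an unadjusted p under 0.05, DESeq2 placed 2 past the rule, and Prtn3, a neutrophil protease, had the largest difference (-1.93 ± 0.87).

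The 16 target genes, which IL-1 is known to induce in many cells, and other stimuli as well, moved furthest. In BMDMs all 14 that could be tested passed the rule, all lower in Tshr MKO, with a median of -3.19 (-1.75 without Tshr f/f replicate 3, when 11 passed). Il6 was at 58.6, 25.2 and 1454 CPM against 0.392, 0.293 and 1.98 CPM (-9.16 ± 2.13), and Ptgs2, the inducible cyclooxygenase, at 447.6, 161.1 and 8839.5 CPM against 8.17, 7.015 and 38.8 CPM (-7.45 ± 1.94). In both, as in Il1a and Il1b, Tshr f/f replicate 3 was the highest library and Tshr MKO replicate 3 the highest of its group. Lcn2, which encodes lipocalin-2 (-6.88 ± 1.37), and the neutrophil chemokine genes Cxcl1 (-5.53 ± 1.29) and Cxcl2 (-4.66 ± 1.34) completed the 5 largest, with groups apart in all 5. The list was drawn up with earlier results of these data known, so its count is a description and no independent evidence of a direction.

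In livers 4 of 14 targets tested passed the rule, all lower in the group labelled Tshr MKO, with a list median of -0.80. The acute-phase genes Saa2 (-4.69 ± 1.63) and Saa1 (-3.44 ± 1.25), Lcn2 (-2.94 ± 1.1) and Socs3, a feedback inhibitor of cytokine signalling (-1.40 ± 0.52), had groups that overlapped. The livers labelled Tshr f/f held 8155, 359.6 and 1562 CPM of Saa1 and those labelled Tshr MKO 100.9, 176.1 and 651.3 CPM, with replicate 1 of the first group far above the rest. With Tshr f/f replicate 1, Tshr MKO replicate 1 or Tshr MKO replicate 2 left out, 0 of the targets passed, and 7 passed with Tshr f/f replicate 3 left out. The neutrophil markers (all 8 detected) summed to 104.1, 32.7 and 9.32 CPM in livers with the label Tshr f/f and 10.1–17.6 CPM in those with the label Tshr MKO. The 7 that could be tested were all lower in the latter (median log2 fold change -2.07), with Ngp (-2.24) and Ltf (-2.29) past the rule, and their part in the target genes was not tested.

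The genes whose pattern was most like that of Il1b over the 6 BMDM libraries were sought among 12521 genes, by the root mean square difference of log2 CPM centred on each gene's mean. The 5 nearest outside the family were Upp1, which encodes a uridine phosphorylase (0.89), Ptgs2 (1.03), Gm44165 (1.05), U90926 (1.11) and the chemokine gene Cxcl3 (1.17), where the spread of Il1b itself was 3.69. Members were left out of that ranking, in which Il1a (1.07) would stand before U90926, while Il1rn (2.13), Il33 (2.36), Il18 (3.05) and Il18bp (3.06) lay further away. Over the 6 livers and among 11974 genes, genes near to Il1r1 were Slc10a2, a bile acid transporter gene (0.09), Rdh16f1 (0.19), Dpy19l3 (0.21) and Papss1 (0.22), against a spread of 0.51. Il1rap, the partner chain of Il1r1, was no nearer (0.51) than the spread of Il1r1.

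Some members overlap other genes in the annotation. Il1a shares 222 exon bases with Gm14023, Il1b 25 with Il1bos and Il18bp 80 with Numa1, all on the opposite strand. Gm14023 had at most 106 counts and Il1bos at most 39 in any BMDM library, against 605 to 162747 of Il1a and 131 to 154711 of Il1b. In livers Gm14023 had 11, 18 and 10 counts under the label Tshr f/f and 45, 21 and 19 under the label Tshr MKO, apart in the same direction as Il1a with its 35 to 197 counts. Since the strand setting of the counting is not given, reads on the shared bases could belong to either gene, and the part of this overlap in the liver Il1a difference was not tested. Numa1, a gene of the mitotic spindle, had 2663–7223 counts in Tshr f/f and 6258–7876 in Tshr MKO BMDMs, above Il18bp in 4 of these 6 libraries, so reads on the shared bases of Il18bp are uncertain.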

How the data were processed

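RNA was measured by strand-specific sequencing in 12 libraries, 3 per group. The authors deposited a table of read counts per gene, made after trimming with Skewer and quality control with FastQC 0.11.2; their processing notes name STAR, StringTie and build mm10, and the counting program is not given in the sources used here. Groups came from the sample labels.

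Counts were tested in edgeR 4.0.16 (R 4.3.3; quasi-likelihood, robust, TMM factors, filterByExpr) per tissue, with Benjamini-Hochberg adjustment over all genes tested. Differences between tissues were fitted over all 12 libraries. Call rule: unadjusted p under 0.05 and 2-fold, the study's limits (which it applied to DEGseq p-values) on edgeR's p. CPM are counts relative to the TMM-scaled library size. Exon lengths are unions from GENCODE M21. Ratios used a pseudocount of 0.5 counts and exact permutation tests. The fits were tested on simulated counts with planted changes. At an adjusted p under 0.05, edgeR's quasi-likelihood test called 96% of 8-fold changes in simulated BMDMs and 92% in simulated livers. No simulated library was made to stand apart as Tshr f/f BMDM replicate 3 did, so these shares need not hold for the data. Libraries of a group differed beyond sampling noise (mean chi-square per gene 14.3 between Tshr MKO BMDM replicates 1 and 2, 50.2 to 639 for other pairs), which does not tell separate animals or cultures from repeat preparations. Counting limits cover counting error only.

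Members and lists were chosen with earlier results of these data known. Named were all members, up to 5 genes per list and tissue past the rule (the largest where none passed) and the 5 nearest to Il1b and to Il1r1. Of these, 1 gene is not reported here. Alternatives were RLE, upper-quartile and library-size scaling, other filters, DESeq2 1.42.0, all 12 libraries in 1 fit, the replicate block, the sample-code letter and leaving out each library. Protein sequences were not used here. Python 3.11.15, scipy 1.17.1, pandas 2.3.3, numpy 2.4.6 and matplotlib 3.10.9 were used.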

Additional observations from a re-analysis of the deposited data

Results flagged for a closer look

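Under the sample labels, the genotype effect on Il1a differed between the tissues by -6.74 on the log2 scale (BMDM minus liver). It is listed because all 3 Tshr MKO BMDMs lay below all 3 Tshr f/f BMDMs, while all 3 livers labelled Tshr MKO lay above all 3 labelled Tshr f/f. The test of the difference gave an unadjusted p of 0.0021 and an edgeR adjusted p of 0.160, which ranged from 0.0432 to 0.387 under the other settings, and leaving out single libraries moved the value between -7.95 and -3.89. With the group headings of the livers exchanged, as a table of the study lists them, Il1a would be lower in both tissues and the difference -4.56 (adjusted p = 0.279), while Lcn2 and Socs3 would be higher in Tshr MKO livers. The study's own analysis of the liver sequencing placed Lcn2 and Socs3 among genes lower in Tshr MKO livers. Other liver assays of the study, not used here, reported lower Lcn2, Socs3, Il1b, Itgam, Adgre1, Il1a, Il6, Itgax and Egr1. Under the sample labels the log2 fold change was positive for Il1a and negative for Lcn2, Socs3, Il1b, Itgam and Adgre1. Il6 had too few liver counts to be tested, and Itgax and Egr1 were not followed here.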

How the results depend on the processing

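The 5 BMDM members past the rule became 2 to 6 when single libraries were left out (2 without Tshr f/f replicate 3, Tshr MKO replicate 1 or Tshr MKO replicate 2), and the 1 liver member became 0 to 2, with 0 when all 12 libraries were in 1 fit and 0 with the sample-code letter as covariate. At an adjusted p under 0.05, DESeq2 called 3 members in BMDMs and 1 between tissues, where leave-one-out fits called 0 to 2. With the replicate block, 5 BMDM members and 1 liver member passed the rule. Same-numbered libraries correlated at 0.17, 0.04 and 0.12 in BMDMs and -0.08, 0.26 and -0.04 in livers. Libraries of different numbers correlated at -0.22 to 0.17 in BMDMs and -0.38 to 0.40 in livers. Whether the numbers pair the libraries cannot be told from these values. Signs turned where values were near 0. Il1r1 in BMDMs was 0.076 with library size only and -0.22 to 0.083 over leave-one-out fits; in livers it was -0.00071 with RLE scaling, -0.0010 with DESeq2, -0.13 with the replicate block and -0.57 to 0.27 over leave-one-out fits; between tissues it was 0.047 with library size only and -0.37 to 0.45. Leave-one-out ranges also crossed 0 for Il1r2 (-0.51 to 0.59) and Il1rl1 (-0.19 to 0.68) in BMDMs, for Il18 (-0.10 to 0.51) and Il18bp (-0.28 to 0.0040) in livers and for Il1r2 between the Tshr f/f groups (-0.060 to 0.544). With the liver headings exchanged (added after the data had been seen), liver values turn by construction, to -1.08 for Il1a, 0.456 for Il1b, 0.735 for Il1rn, -0.164 for Il18, 0.113 for Il18bp, 0.294 for Il33, -0.0108 for Il1r1, 0.822 for Il1r2 and -0.212 for Il1rap, the differences between tissues of Il1r2 and Il1rl1 to -0.577 and -4.58, and 8 members differed between the control groups. The other causes were not tested. Library size only moved the BMDM median of all genes to 0.17, so BMDM differences under it are relative to that shift; Il18bp (-0.97) then missed the 2-fold limit, which left 4 members past the rule. DESeq2 placed 4 of the 8 members it gave a p past the rule. Il1r2, Il33 and Il1rl1 in livers rest on under 50 counts per library, which limits what can be detected.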
